A study of Schizosaccharomyces pombe with 8 samples.

Results

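The atf1 gene of the fission yeast Schizosaccharomyces pombe (SPBC29B5.01) has 1 annotated intron, in its 5′ UTR. All rows of the deposited junction table that lie inside the annotated gene were taken, which gave 3 of 14440 rows, namely that annotated intron and 2 rows for other 3′ splice sites. Poly(A) RNA was sequenced from 6 strains with temperature-sensitive alleles of splicing factors, with 1 library each, and from wild type (WT, strain ED666) with 2 libraries. The mutants were ntr1-W597R (Ntr1 helps to take the spliceosome apart), prp22-V801M;G917R (Prp22 is the helicase for mRNA release), cwf22-G191D (Cwf22 belongs to the spliceosome), prp1-G705D (Prp1 works in the tri-snRNP), and prp10-R379H and sap114-A152V (SF3b and SF3a proteins of the U2 snRNP). Every culture, WT included, grew in YPD at 25 °C to mid-log phase and was then held at 37 °C for 15 minutes, so all 8 libraries share the heat shift, and libraries from unshifted cells were not analysed here.

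Atf1 is a bZIP transcription factor of the ATF/CREB family. It forms a heterodimer with Pcr1, binds CRE-like sites and is phosphorylated by the stress-activated MAP kinase Sty1, which heat, osmotic stress and oxidants switch on. The Sty1 and Atf1 pair drives much of the common stress response of this yeast, including genes for catalase, trehalose synthesis and small heat shock proteins.

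The atf1 gene lies on the forward strand of chromosome II from 1546217 to 1549862 in the reference annotation, with its coding region from 1547661 to 1549361. Its intron runs from 1546465 to 1547319 in build ASM294v2, as the table gives it, and is 855 nt long. No annotated intron in the table is longer (0 of 5144), and the next longest among those tested had 837 nt. The ends of the intron are shown because the reads are counted across them. Each window is 30 bases on the forward strand. In the first, the capitals mark the first 6 bases of the intron. In the second they mark the inferred branch site and a run of 2 adjacent AG dinucleotides, of which the first ends the annotated intron.
5′ splice site, II:1546459-1546488: aaatagGTATGTgtttatacatgcaattgt
3′ splice site, II:1547295-1547324: agacatctaaCTAATtctcgtctAGAGcct

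The same first 6 bases, GTATGT, stood in 564 of the 2514 tested introns (22.4%). The branch site is not annotated and was taken as the last match to CTAAC, to CTAAT, to CTGAC or to CTGAT, on the intron's strand, in its last 60 nt. In atf1 a CTAAC, also in the printed window, ends on the first base of this CTAAT and was passed over by that rule. CTAAT was the match in 24.6% of the tested introns, and the distance from its adenosine to the intron's end, 11 nt, equalled the median of those with a match. By these letters the ends of the atf1 intron are like those of many others, while no other is as long. Removal of the intron leaves a leader of 589 nt with 1 ATG, while the unspliced leader has 1444 nt and 13 ATGs. The coding region is the same in both forms.

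The other rows carried almost no reads. A row for a 3′ splice site 76 nt upstream of the annotated one had 0 spliced reads in all libraries. A row for the AG that lies 2 nt downstream had 2 reads in prp22, 1 in sap114 and none in the other 6 libraries. These 3 reads are 0.493% of the spliced reads of the gene, beside 605 reads across the annotated intron, and at this depth no difference between strains was detectable. All further values therefore concern the annotated intron. The gene was chosen from read counts of these same libraries, with mutant and WT values in view. Which of the values led to the choice is not recorded, so its own mutant values against WT are given as a description, with no test.

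In WT the atf1 intron was often unspliced after the heat shift. WT replicate 1 had 87 spliced and 51 unspliced reads, an unspliced share of 37.0% (Wilson 95% interval 29.4 to 45.3). WT replicate 2 had 120 and 114, a share of 48.7% (interval 42.4 to 55.1). These intervals, like all below, cover counting error only. The median share of the tested introns, which needed 20 reads or more per library, was 4.67% and 5.60% in the same libraries, so atf1 lay far above the typical intron in unmutated cells. Of the 2514 tested introns, 177 and 116 had a higher share in the respective WT library.

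In every mutant nearly all reads at the intron were unspliced. The prp1 library had 135 spliced and 1025 unspliced reads, a share of 88.4% (interval 86.4 to 90.1). In prp10 there were 63 and 922 reads, or 93.6% (91.9 to 94.97), and in prp22 115 and 2672, or 95.9% (95.1 to 96.6). The sap114 library gave 33 and 1530, or 97.9% (97.0 to 98.5), and cwf22 35 and 2349, or 98.5% (98.0 to 98.9). The ntr1 library, with 17 spliced and 2877 unspliced reads, had the highest share at 99.4% (99.1 to 99.6). The order of the strains was thus prp1, prp10, prp22, sap114, cwf22 and ntr1, and only the intervals of the neighbours sap114 and cwf22 overlapped. Each strain has 1 library, so this order has no replicate check.

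The mean share was 95.6% ± 4.12 (SD, n = 6) in the mutants and 42.8% ± 8.32 (SD, n = 2) in WT, which is 52.8 percentage points apart. No mutant library reached down to WT, and the same held for 98.6% of the tested introns, while 0.0398% had all mutants below WT, so the direction is that of nearly every intron. On the log2 scale the odds of unspliced to spliced reads were higher by 5.43 in the mutants (standard error 1.01), close to the median of 5.05 over the 2514 introns, and atf1 ranked 1020 from the top. For the odds, edgeR called 97.0% of the introns higher in the mutants. Against all tested introns, the atf1 intron therefore stood out by its level of unspliced reads, and not by the size of its change in the odds. That held in WT and mutants alike. The 42 other tested introns of at least 400 nt had median shares near those of atf1, at 42.0% in WT and 92.1% in the mutants.

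**Figure D1:**
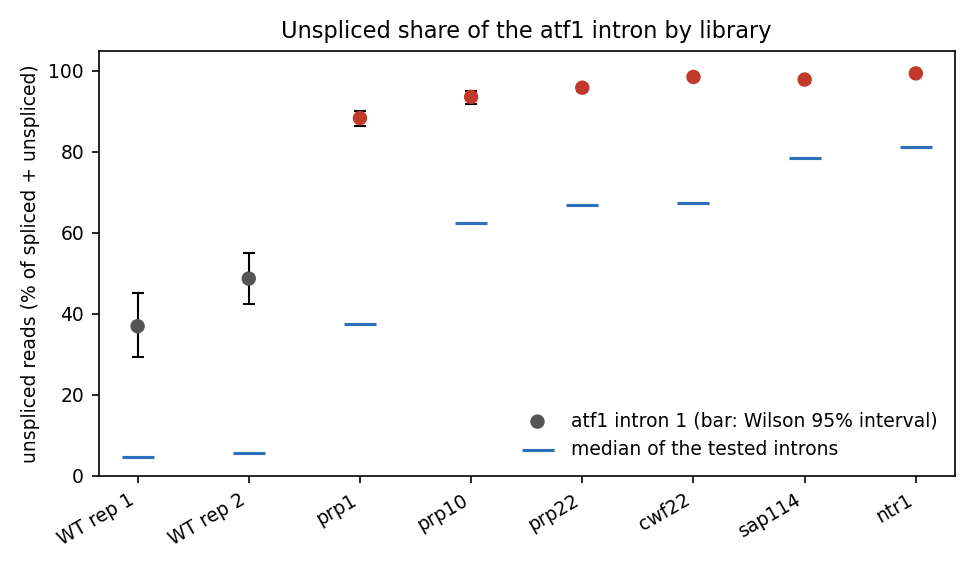
Unspliced share of the atf1 intron in each library (vertical axis, % of spliced plus unspliced reads), with Wilson 95% intervals, in grey for WT and red for the mutants, beside the median of the 2514 tested introns (blue dashes). The atf1 share is 37.0% and 48.7% in WT and between 88.4% and 99.4% in the mutants, above the median in every library.

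Each mutant was then compared with the other 5, a contrast among mutants that leaves WT out. The gene was chosen with these same mutant libraries in view. The adjusted p-values of such contrasts, here and below, do not account for that choice. The lone prp1 library had a log2 difference in odds of −2.50 (standard error 0.97, adjusted p = 0.0394 by edgeR's quasi-likelihood test with Benjamini-Hochberg (BH) adjustment over introns). In that fit 46.3% of all tested introns were called lower, with a median of −2.05, so the atf1 value lay near that of the typical intron. The call was lost without cwf22 (adjusted p = 0.0670 in edgeR) and in limma (0.0585 with a pseudocount of 0.5 and 0.0512 with 1), and it rests on 1 library set against 5 different genotypes. For ntr1 the value was 2.82 higher (standard error 1.31, adjusted p = 0.614 in edgeR), and the other 4 strains did not pass either. Their values were −1.42 in prp10 (standard error 1.46), −0.60 in prp22 (1.44), 0.64 in sap114 (1.33) and 1.29 in cwf22 (1.48). These standard errors leave differences of several fold undetected.

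Transcript level was read in a pair of ways, which came apart for this gene. The first measure is the sum of spliced and unspliced reads at the intron, in CPM, counts divided by library size, after scaling by the trimmed mean of M values (TMM). It was 315 and 278 in WT replicates 1 and 2, against 1042 in prp1, 1278 in prp10, 1385 in sap114, 1837 in ntr1, 2367 in prp22 and 2849 in cwf22. Every mutant lay above both WT libraries, from 3.52-fold the WT mean in prp1 to 9.62-fold in cwf22. Such a separation upward was found in 23.6% of the 1363 tested genes, and one downward in 20.8%. The mean was 1793 ± 699 (SD, n = 6) in the mutants and 296 ± 26.2 (SD, n = 2) in WT, giving a ratio of 6.05. As a fitted log2 change this was 2.60 (standard error 0.36), the second highest of 1363 genes, where the median gene had 0.02 and edgeR called 19.0% of genes higher. In bulk RNA, a change in the number of cells that hold the transcript and a change in its amount per cell cannot be told apart.

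The second measure is the spliced reads alone, scaled by TMM of spliced reads. It was 213 and 153 in WT replicates 1 and 2, and 52.0 in ntr1, 126 in sap114, 127 in cwf22, 207 in prp1, 216 in prp10 and 277 in prp22. The groups overlapped. The levels of prp10 and prp22 were above both WT libraries, those of ntr1, sap114 and cwf22 below both, and that of prp1 between them. Full separation from WT was seen in 17.4% of genes upward and 19.4% downward. The mean was 168 ± 80.6 (SD, n = 6) in the mutants and 183 ± 42.6 (SD, n = 2) in WT, with a fitted log2 change of −0.10 (standard error 0.42), near the median gene's −0.06. This mean covers strains that lay on both sides of WT, from 0.284-fold the WT mean in ntr1 to 1.51-fold in prp22. When spliced reads were instead scaled by the total reads, a setting chosen after seeing the data, the value was −1.42, again near the median gene (−1.46).

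**Figure D2:**
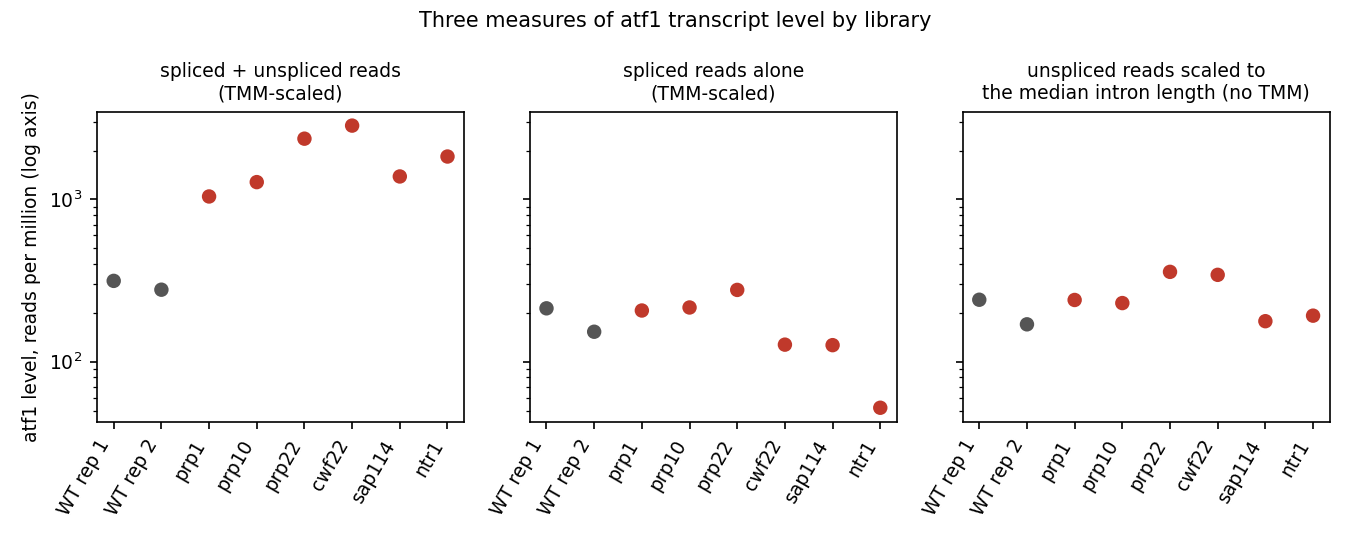
Level of atf1 in each library in CPM (vertical log axis), as spliced plus unspliced reads (left), spliced reads alone (middle) and with unspliced reads scaled to the median intron length of 62 nt and no TMM scaling (right), in grey for WT and red for the mutants. On the left the mutants (1042 to 2849) lie above WT (278 and 315), whereas in the middle (52.0 to 277 against 153 and 213) and on the right the groups overlap.

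Among the mutants neither measure passed for any strain. For total reads 0 of 6 strains passed against the other 5 in edgeR (over all genes 0.0734% were called higher in prp22, and none in the other strains or downward), 2 at an unadjusted p under 0.05, and 0 in DESeq2. The largest were a log2 value of −0.88 in prp1 (standard error 0.37, adjusted p = 0.346 in edgeR) and 0.85 in cwf22 (0.31, adjusted p = 0.998). For spliced reads 0 of 6 passed in edgeR, 1 at an unadjusted p under 0.05, and 0 in DESeq2. That 1 was ntr1, where spliced atf1 reads had a log2 value of −1.93 (standard error 0.53, adjusted p = 0.205 in edgeR). Without sap114 this value was −2.04 and passed, in a fit that also called other genes lower. The main fit for ntr1 called none lower.

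The length of the intron moved with the gap between the measures. Unspliced shares in WT were larger in longer introns, with a median of 3.44% at 32 to 50 nt, 4.17% at 51 to 100 nt, 9.11% at 101 to 200 nt, 24.5% at 201 to 398 nt and 42.7% at 405 to 855 nt. The mutant medians over the same bins were 59.0%, 61.4%, 74.7%, 83.6% and 92.7%. In both classes the atf1 share lies close to the median of its own length bin. Each tested intron was then given the log2 change of its gene, so a gene with several introns counts more than once. The median over the introns of these bins was −0.21, −0.10, 0.16, 0.59 and 1.11 for total reads, and stayed between −0.16 and 0.01 for spliced reads. The level of the latter depends on scaling by TMM of spliced reads, which put the median gene at −0.06, against −1.46 with scaling by total reads. How a read was classed as unspliced is not given in the sources used here, and the part of intron length in the atf1 total was not tested.

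**Figure D3:**
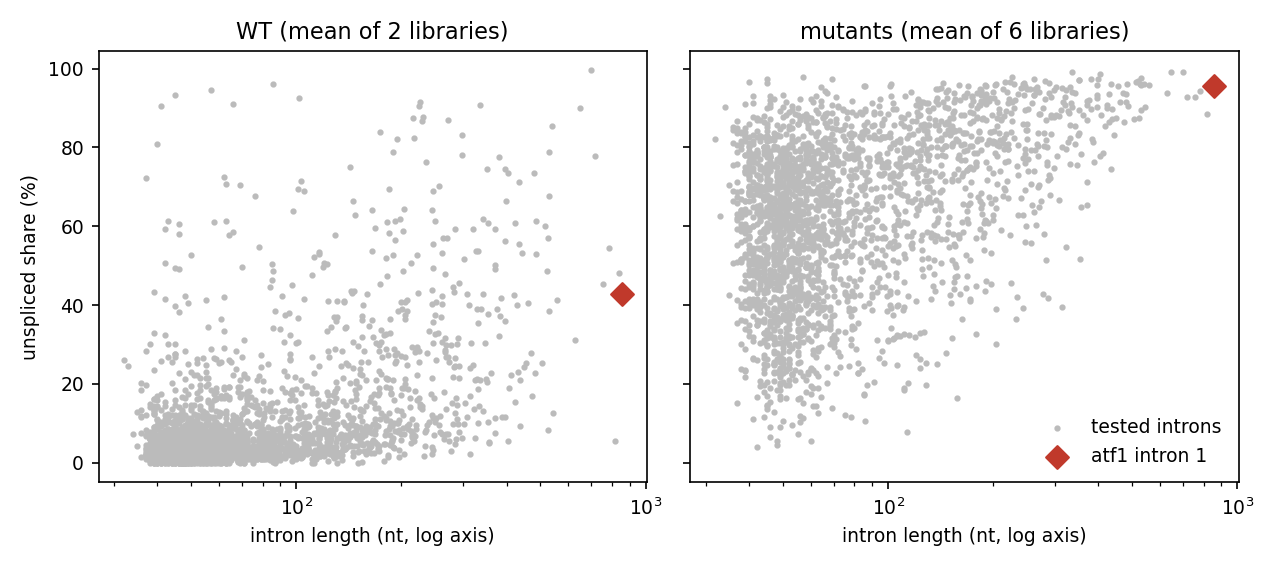
Unspliced share (vertical axis, %) against intron length (horizontal log axis, nt) for the 2514 tested introns, as the mean of the 2 WT libraries (left) and of the 6 mutants (right), with atf1 as a red diamond. The shares rise with length in WT, and atf1, the longest at 855 nt, lies at 42.8% on the left and 95.6% on the right.

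Among the 42 other tested introns of at least 400 nt, the median share was 42.0% in WT and 92.1% in the mutants, and 20 had a higher WT share than atf1 and 14 a higher mutant share. Total reads of their 42 genes had a median log2 change of 1.06, with a range from −0.79 to 2.52, and 31 were called higher by edgeR, beside 19.0% of all tested genes. Their spliced reads had a median of −0.19. The atf1 total thus had a larger value than that of each of these genes, of which aco1, for mitochondrial aconitase, came nearest (2.52). With each unspliced read weighted by 62 nt over the intron's length, a setting added after seeing the data, atf1 levels in CPM of the weighted reads, without TMM scaling, were 241 and 170 in WT replicates 1 and 2, and 178 in sap114, 192 in ntr1, 230 in prp10, 240 in prp1, 343 in cwf22 and 358 in prp22. On this scale the groups overlapped, with 2 of 6 mutants above both WT libraries, and the log2 ratio of the means was 0.32, against 2.43 with unspliced reads counted whole and no TMM scaling. The median gene had 0.09 on the length-weighted scale, which placed atf1 at 369 of 1363 genes.

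**Figure D4:**
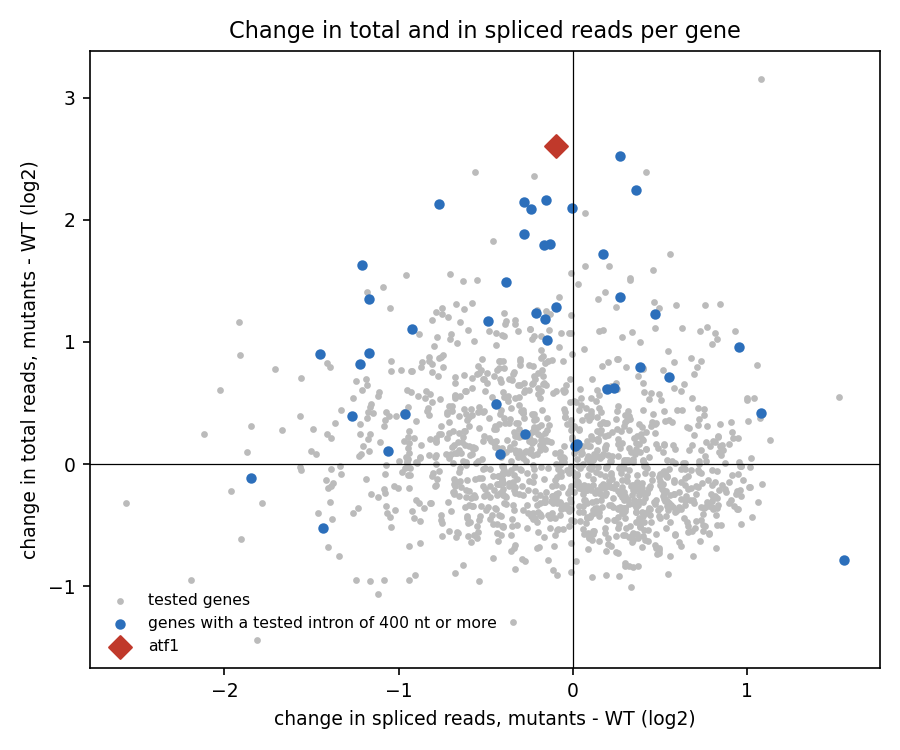
Fitted log2 change of total reads (vertical axis) against that of spliced reads (horizontal axis), mutants minus WT, for the 1363 tested genes in grey, with genes that have a tested intron of at least 400 nt in blue. atf1 (red diamond) lies at 2.60 on the vertical and −0.10 on the horizontal axis. Near it lie genes with long introns, such as aco1 (629 nt), and genes outside the blue set, such as scs7 (longest tested intron 288 nt). The highest gene on the vertical axis, rpl1802 (3.16), has a longest tested intron of 71 nt.

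Other annotated features of the locus may share its reads. A long noncoding RNA, SPNCRNA.5237, is annotated on the opposite strand from 1545652 to 1546860 and covers exon 1 and the first 396 nt of the intron. The libraries were directional, but whether the counts use strand is not given in the sources used here, so unspliced reads of atf1 and of this RNA cannot be told apart. Such overlap was common, at 59.0% of the tested introns, and the median WT share was 5.32% with and 5.21% without it. Among the 42 other long introns, 26 had an antisense gene, with a WT median of 40.8% and a median change of 1.23 in total reads, and 16 had none, with 46.7% and 0.55.

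Introns of 5′ UTRs were few, 46 besides atf1 among those tested, and the longest of these had 543 nt. Their median share was 18.4% in WT and 81.8% in the mutants. By mean mutant share atf1 ranked 5 among all 47, and by mean WT share 13. No coding sequence is altered when such an intron is kept.

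Introns of other genes were nearest to atf1 by the root mean square difference of their unspliced shares over the 8 libraries. The nearest was intron 1 of SPCC663.15C (III 1662249 to 1662492, 244 nt), at a distance of 2.24 percentage points, with shares of 36.2% and 51.3% in WT and 85.6% to 98.8% in the mutants. Next came intron 1 of opy1 (281 nt, 2.29 points), intron 2 of atg13, an autophagy gene (244 nt, 2.75 points), intron 1 of SPCC24B10.18 (282 nt, 3.16 points) and intron 2 of SPAC22H10.02 (137 nt, 3.39 points). All 5 lie in coding regions and are much shorter than the atf1 intron, so its profile of shares over the libraries is not one that only the longest introns have.

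For the log2 total level relative to WT, the nearest genes were scs7, for a sphingolipid hydroxylase (distance 0.33, longest tested intron 288 nt), aco1 (0.36, 629 nt), pal1, a gene of cell polarity (0.45, 246 nt), elo1, for a fatty acid elongase (0.46, 837 nt), and rli1, for an ABC protein of ribosome recycling (0.54, 437 nt). In atf1 this level ran from 1.82 in prp1 to 3.27 in cwf22, and in aco1 from 2.02 in prp1 to 2.96 in cwf22. For the log2 spliced level the nearest were dps1 (0.29, 81 nt), SPCC23B6.02C (0.29, 71 nt) and the bromodomain gene bdf2 (0.31, 514 nt). Next came gpd3, for glyceraldehyde-3-phosphate dehydrogenase (0.32, 543 nt), and pss1, for an Hsp70 family chaperone (0.36, 405 nt). All of these genes were picked for likeness over these libraries, so a low level in ntr1, where atf1 stood at −1.82 and bdf2 at −2.58, comes with the choice.

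Most other genes of the stress pathway could not be followed in the table, since few have introns. Of 75 genes in 4 lists, for the MAP kinase module, stress transcription factors, RNA and transport factors, and stress targets, 16 had an annotated intron and 10 had a tested one. No annotated intron was matched to sty1, wis1 or pcr1. All 16 tested introns in these 10 genes rose in the mutants by edgeR, beside 97.0% of all tested introns, with a median log2 change of 5.60.

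The MAP kinase list had 6 tested introns, in ptc3 and prr1. In ptc3, for a protein phosphatase that acts on Sty1, intron 1 (258 nt) rose from 11.8% ± 2.33 (SD, n = 2) to 65.4% ± 13.2 (SD, n = 6) and intron 2 (39 nt) from 1.46% ± 2.07 to 53.0% ± 11.4. In prr1, for a response regulator that acts as a transcription factor, the 4 introns rose, with the long intron 2 (756 nt) going from 45.3% ± 7.95 to 92.7% ± 4.30 and intron 3 (53 nt) from 3.33% ± 1.94 to 57.9% ± 22.5. The prr1 intron 2 thus had shares like those of atf1, but its gene moved otherwise. Total reads of prr1 fell by 0.53 on the log2 scale (standard error 0.18, edgeR adjusted p = 0.0419), and its spliced reads fell by 1.44 (0.34, edgeR adjusted p = 0.0347). Both prr1 calls were lost without either WT library, in fits that hold 1 WT library and called fewer of all genes. The first was also lost without prp22 (edgeR adjusted p = 0.0582) or sap114 (0.0720), where 126 and 130 of 1363 genes were called lower. The second was lost without prp10 (edgeR adjusted p = 0.0753) or cwf22 (0.0804). Each of those 2 fits called 0 of 1363 genes in either direction, so that loss is not particular to prr1.

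Among stress transcription factors, intron 1 of hsf1, for the heat shock factor (342 nt, I 5059803 to 5060144), rose from 13.04% ± 3.82 to 93.8% ± 5.66. Total reads of hsf1 rose by 1.54 (standard error 0.22, edgeR adjusted p = 0.000229), whereas its spliced reads had a value of −0.96 (0.49, edgeR adjusted p = 0.201). The 3 introns of php3, for a subunit of the CCAAT-binding complex, rose, intron 1 from 7.12% ± 0.483 to 86.1% ± 11.3. Total php3 reads rose by 0.81 (edgeR adjusted p = 0.00474), a call lost without WT replicate 1 (adjusted p = 0.0738). Intron 2 of php5, of the same complex, rose from 1.95% ± 2.75 to 69.0% ± 16.9, and the 5′ UTR intron of zip1, for a bZIP factor of the cadmium response, from 3.46% ± 1.09 to 65.4% ± 21.2.

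Of the other lists, the intron of sla1, for the La RNA-binding protein, rose from 0.443% ± 0.173 to 43.3% ± 21.6. The intron of trr1, for thioredoxin reductase, rose from 6.19% ± 2.72 to 74.9% ± 16.4, that of wos2, for an Hsp90 cochaperone, from 17.1% ± 2.13 to 73.5% ± 21.2, and that of trx2, for a thioredoxin, from 2.34% ± 0.231 to 22.7% ± 9.63. The trx2 call was lost without WT replicate 2 (edgeR adjusted p = 0.0572). Total reads of trr1 rose by 1.12 (0.24, edgeR adjusted p = 0.00396), a call lost without WT replicate 1 (0.0515) or 2 (0.0500).

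Over the 10 genes 3 rose (hsf1, php3 and trr1) and 1 fell (prr1) in total reads by edgeR, where 19.0% of all genes were called higher and 11.7% lower. In spliced reads 1 fell (prr1) and 0 rose in edgeR, which called 3.89% of all genes higher and 2.57% lower. At an unadjusted p under 0.05, 2 were higher and 1 lower in edgeR, and 3 higher and 1 lower in DESeq2. The share of all genes at that threshold is not given here, so these counts have no background beside them. After adjustment DESeq2 called 0 higher and 1 lower, beside 131 higher and 52 lower of all 1363 genes. The medians of the 10 genes were 0.38 for total and 0.05 for spliced reads.

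**Figure D5:**
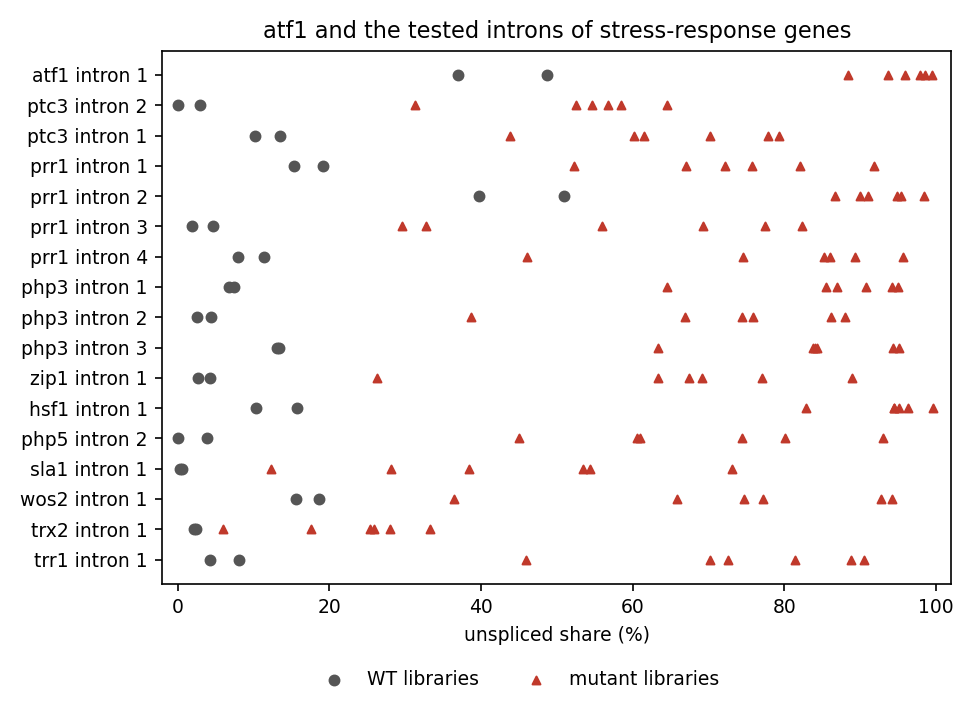
Unspliced share (horizontal axis, %) of the atf1 intron and of the 16 tested introns of stress-response genes (rows), with the 2 WT libraries as grey circles and the 6 mutants as red triangles. In all 17 rows the mutants lie above WT, and WT shares as high as those of atf1 (37.0% and 48.7%) are found in prr1 intron 2 (39.7% and 50.9%).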

How the data were processed

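The authors deposited 1 table of raw counts of spliced and unspliced reads per junction in 8 libraries, per the file headers, with no normalization. STAR 2.5, bedtools 2.26 and build ASM294v2 are named in the submitters' processing notes, whereas the sources used here give neither the counting rule nor its strand setting. Libraries were directional and made from poly(A) RNA (1 µg of total RNA), per the labels' protocols. Reads summed over annotated introns ranged from 420473 (WT replicate 1) to 1858792 (ntr1).

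Symbols, intron numbers and sequence came from the NCBI RefSeq assembly ASM294v3. There 5134 of the 5143 annotated introns on the 3 nuclear chromosomes had GT and AG ends, and 5077 of 5144 matched a reference intron at both ends.

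The minimum for a test was 20 reads per library, which 2514 introns in 1363 genes met. Fits used edgeR 4.0.16 in R 4.3.3 (quasi-likelihood F test, BH at 0.05). The odds fit has 1 coefficient per library and 1 of unspliced over spliced per group, so library size does not enter. Gene sums were scaled by TMM. The single library of a strain is taken to have the spread of the other libraries, and nothing says that the WT libraries came from separate cultures, so p-values measure the spread between libraries, which may be technical. Standard errors were derived from the F statistic. Settings tried instead were other read minimums, DESeq2 1.42.0, limma 3.58.1, other scalings and leaving out each library. The members, the gene lists and the rules for named genes (all list members with a tested intron, and the 5 nearest introns or genes by root mean square difference) were chosen with earlier results of these data known.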

Additional observations from a re-analysis of the deposited data

Results flagged for a closer look

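The odds of unspliced to spliced reads at the atf1 intron passed the threshold for a difference between the 1 prp1 library and the other 5 mutants, with a log2 value of −2.50 (edgeR adjusted p = 0.0394). The prp1 share was 88.4%, the lowest of the 6 mutants, and its median over all tested introns, 37.5%, was the lowest as well. The share was lower than that of each of the other 5 mutants. The gene was chosen with these libraries in view, and the adjusted p does not account for that choice. The adjusted p ran from 0.0191 to 0.0670 over the alternatives tried, and the call was lost without cwf22 (0.0670) and with limma (0.0585 and 0.0512).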

How the results depend on the processing

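The log2 odds of atf1 kept their direction and ran from 4.99 to 5.83 when each library was left out. The share difference ran from 46.9 to 58.7 percentage points when each library was left out, the ends being without WT replicate 1 and 2. The fitted total read value ran from 2.39 to 2.72 when each library was left out. As a log2 ratio of means without TMM scaling it was 2.43, and 0.32 with unspliced reads scaled to the median intron length, which by construction gives the long intron less weight. The spliced value was −1.42 when scaled by TMM of total reads, and from −0.32 to 0.13 when each library was left out, so its sign is not settled. The number of strains whose odds passed against the other 5 was 1, but 0 with limma at either pseudocount (0.5 or 1), and 0 to 1 when each library was left out. That number was 0 for total reads, and for spliced reads 0, or 0 to 1 when each library was left out. The ntr1 value for total reads against the other 5 turned from 0.03 to −0.079 with summed reads as library size, and ran from −0.11 to 0.26 when each library was left out.

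Over the stress lists, the genes with lower total reads numbered 1, but 3 with summed reads as library size and 0 with no minimum, and 0 to 2 when each library was left out. Among all genes, edgeR called 160 of 1363 lower in the main fit. It called 274 of 1363 lower with summed reads as library size and 147 of 2393 with no minimum. Stress genes with higher total reads numbered 3 to 4 when each mutant library was left out. Those fits called 215 to 302 of all 1363 genes higher and 126 to 213 lower. Without either WT library, which leaves 1 WT library in the fit, fewer genes were called in the lists and over all genes. Lower spliced reads were called in 7 of the 10 stress genes when scaled by TMM of total reads. In that setting edgeR called 1171 of all 1363 genes lower, with a median of −1.46, while zip1 was at −1.19 and sla1 at −0.91. When each mutant library was left out, lower spliced reads were called in 0 to 1 of the stress genes, as were higher ones. Over all 1363 genes those fits called 0 to 195 lower and 0 to 181 higher. The causes were not tested. No paired analysis was possible because no mutant strain has a second library. The choice of introns by the table's own gene names was not run, as its names are coordinates. Depth at the intron was lowest in WT replicate 1, with 138 reads.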
